A study of Mus musculus with 2 samples.

Results

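Venous endothelial cells of the mouse lung were described in single-cell RNA sequencing of CD45- cells, that is lung cells outside the leukocyte gate, collected by flow sorting 7 days after labelling-4T1 cells had been given intravenously. 4T1 is an established mouse mammary carcinoma line that seeds the lung, and its labelling form is known to release a cell-penetrating mCherry that nearby cells take up. The sort gave 2 groups from injected lungs, Cherry_Positive and Cherry_Negative, with 1 library each. Irradiation is named in the series title, but no label assigns it to these animals, and strain, age and number of mice are not stated in the labels used here.

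A cell was a member when it had at least 500 genes, at most 10% mitochondrial counts, at least 4 unique molecular identifiers (UMIs, counted RNA molecules) of Pecam1, Cdh5, Cldn5, Egfl7 and Ramp2 together, more of these than of the collagen genes and Dcn, and a sum of Vwf, Slc6a2, Nr2f2, Prss23 and Bst1 of at least 3 that exceeded the marker sum of every other endothelial class. This rule found 130 members among 4581 kept cells, 16 in Cherry_Positive and 114 in Cherry_Negative. The same rule gave 96 and 768 general capillary cells, 85 and 340 Car4 capillary cells, 20 and 166 arterial cells, and 18 and 4 lymphatic cells. The members were chosen on measured counts, so their 5 rule markers are described and support nothing. With 1 library per group there is no replicate check and no test, and all intervals below are 95% intervals for counting error only.

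Veins collect blood behind the capillary bed, and in many tissues venous endothelium is the main place where leukocytes slow down, stick and leave the blood. Whether this holds in the lung was not examined here. Venous endothelium stores von Willebrand factor and P-selectin for rapid release, and its identity depends on the nuclear receptor COUP-TFII, the product of Nr2f2. In the lung, capillary endothelium is split between general capillary cells and large Car4-expressing cells pressed against the alveolus, and the veins drain both.

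The libraries held 1826 and 2861 barcodes, of which 1770 and 2811 were kept. Members carried a median of 4213 UMIs in Cherry_Positive, with 72834 UMIs in all, and of 2824 in Cherry_Negative, with 474136 in all. The libraries shared 13 barcodes, and 1 of these was a member, in Cherry_Negative.

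Rule markers were spread unevenly over the members, and their counts describe the choice of cells. In Cherry_Negative, Vwf, the gene of von Willebrand factor, was counted in 83 of 114 members with 587 UMIs, and Slc6a2, the noradrenaline transporter of lung venous endothelium, in 47 members with 160 UMIs. In Cherry_Positive, Vwf was counted in 6 of 16 members with 34 UMIs and Slc6a2 in 3 with 22 UMIs. Every member with Slc6a2 also held Vwf and Prss23 in both libraries. On mm10, Vwf spans 125546774 to 125686679 of chromosome 6 and Slc6a2 spans 92960079 to 93001667 of chromosome 8, both on the plus strand.

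Prss23, a secreted serine protease gene, was the most widely held rule marker, with UMIs in 16 of 16 and 104 of 114 members. It was the only rule marker in 8 Cherry_Positive and 25 Cherry_Negative members, and it was also counted in general capillary cells, at 491 and 524 UMIs per 1000000 UMIs of the class (CPM) in the 2 libraries. Nr2f2 was counted in 4 and 30 members and Bst1, an ectoenzyme gene, in 1 and 19. Members with neither Vwf nor Slc6a2 made up 62.5% (35.4% to 84.8%) of Cherry_Positive members and 27.2% (19.3% to 36.3%) of Cherry_Negative members. Of these, 3 Cherry_Negative cells, all among the mixed cells described below, held no Prss23. The 9 and 27 that were not mixed all held it and are called Prss23-led members here, after their most widely held marker.

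**Figure D1:**
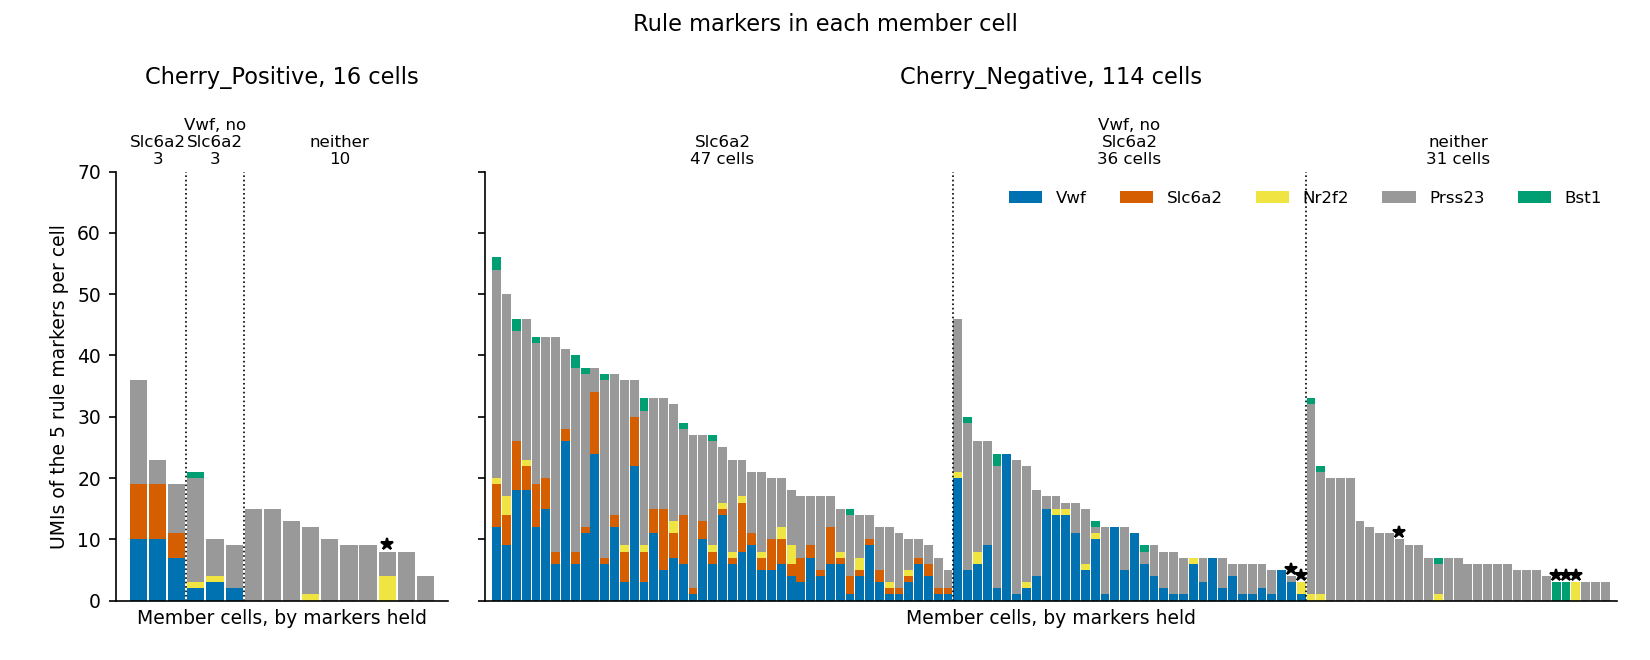
UMIs of the 5 rule markers (vertical axis) in each of the 16 Cherry_Positive and 114 Cherry_Negative members (1 bar per cell), grouped by whether the cell held Slc6a2, Vwf without Slc6a2, or neither. Stars mark 7 cells with over 2% of their UMIs in markers of other cell types, and grey Prss23 fills most of the bars at the right of each panel.

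Close to the threshold, 7 Cherry_Negative members and no Cherry_Positive member had a venous sum of exactly 3. Just outside lay 1 and 3 endothelial cells whose venous sum of 2 was the largest, and 3 and 11 cells with a sum of at least 3 tied with another class. A further 47 and 206 endothelial cells had a venous sum of at least 3 below another class sum, most often that of general capillary cells (30 and 166). Vwf UMIs were seen in 15 and 177 endothelial cells in all, so 9 and 94 cells with Vwf were not members.

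In 7 members, over 2% of the UMIs came from markers of other cell types. Of these, 2 Cherry_Negative cells that qualified on 3 UMIs of Bst1 alone carried 1599 and 3027 UMIs of Sftpc, the surfactant gene of type 2 alveolar cells. Another, with 38812 UMIs, carried 16068 of Scgb1a1, the club cell secretoglobin. The Cherry_Positive cell held 100 UMIs of Acta2 and 86 of Tagln, which are smooth muscle genes, and 295 of a Ccl21a gene ID, for a chemokine of lymphatic endothelium with near-identical copies. The remaining 3, all in Cherry_Negative, were highest in smooth muscle, fibroblast or alveolar markers. The doublet caller marked none of the 7, and the values that moved most without them are given beside the result.

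Over all members, the summed level of 11 type 2 and type 1 alveolar markers was 343 CPM in Cherry_Positive and 16537 CPM in Cherry_Negative. Without the 7 cells it was 334 and 2190 CPM. The 11 pericyte and smooth muscle markers summed to 3185 and 656 CPM, and to 127 and 331 CPM without those cells. Of 13 leukocyte markers, 3 were detected in each library, at 41.2 and 1744 CPM in sum and 31.8 and 159 CPM without those cells, and the defining Ptprc, Cd3e and Csf1r were at 0 in both. Of 9 platelet markers, none was detected in Cherry_Positive members and 3 in Cherry_Negative ones, with 13 UMIs in all, and Ppbp and Gp9 were at 0 in both. Of 5 mesothelial markers, none and 2 were detected, the latter with 6 UMIs. The part of these other cell types in the results was not tested.

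Several genes of leukocyte capture were higher in members than in the other endothelial classes of the same library, which were summed, although the leukocyte adhesion list as a whole was not. Vcam1, whose product holds rolling leukocytes through the integrin VLA-4, stood at 1432 CPM in Cherry_Negative members against 105 CPM, a ratio of 13.6 (12.1 to 15.4). In Cherry_Positive it stood at 673 against 113 CPM, a ratio of 5.95 (4.14 to 8.46). Selp, the gene of P-selectin, stood at 299 against 11.5 CPM in Cherry_Negative, a ratio of 26.1 (18.6 to 37.2), and at 96.1 against 6.78 CPM in Cherry_Positive, a ratio of 14.2 (4.08 to 51.0). Both genes were thus higher in members of both libraries, with intervals that leave out 1.

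Ackr1, a receptor that binds chemokines without signalling and is known as a mark of venules, had few UMIs outside members. It stood at 308 CPM in Cherry_Negative members and at 2.74 CPM in the other classes, a ratio of 112 (60.9 to 230), and it was at 0 in Car4 capillary and arterial cells of that library. These UMIs came from 18 members, 30.1% of them from 1 cell, and with cells thinned to 2000 UMIs the log2 ratio of Ackr1 was 5.63 in place of 6.75. In Cherry_Positive, Ackr1 had 2 UMIs in members and 0 in the other classes. Ackr3, which takes up the chemokine CXCL12, stood at 462 against 64.6 CPM in Cherry_Negative (7.15-fold, 5.95 to 8.60) and 275 against 64.4 CPM in Cherry_Positive (4.26-fold, 2.42 to 7.20). Icam1, a partner of leukocyte beta-2 integrins that capillary cells also express, differed less, with ratios of 1.67 (1.48 to 1.89) in Cherry_Negative and 1.04 (0.699 to 1.49) in Cherry_Positive. Sele, the gene of E-selectin, had 15 UMIs in Cherry_Negative members and 6 in the other classes, a ratio of 21.1 (7.75 to 66.5). Over the 13 measured genes of the leukocyte adhesion list, 5 were at least 2-fold higher in Cherry_Negative members, against 9.58% of all genes of at least 10 UMIs, and 1 at least 2-fold lower, against 10.9%, with a median log2 ratio of 0.11. In Cherry_Positive 3 of 11 were at least 2-fold higher and 3 lower, against 13% and 16.8%, with a median of 0.06 that turned to -0.48 when cells were thinned to 2000 UMIs.

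Shares of cells with a UMI gave the same order once each Cherry_Negative cell was thinned to 2000 UMIs, which left out 23 members and 253 general capillary cells. Vcam1 was then counted in 47.3% of 91 members and 9.90% of 515 general capillary cells (58.8% and 10.3% before thinning, at median depths of 2824 and 2393 UMIs). For Selp the thinned shares were 35.2% and 0.777% (35.1% and 1.17% before). Arterial cells lay nearer for Vcam1, with a thinned share of 19.4% of 103 Cherry_Negative cells. In Cherry_Positive the thinned Vcam1 shares were 37.5% of 16 members and 22.2% of 18 arterial cells (50% and 45% before).

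**Figure D2:**
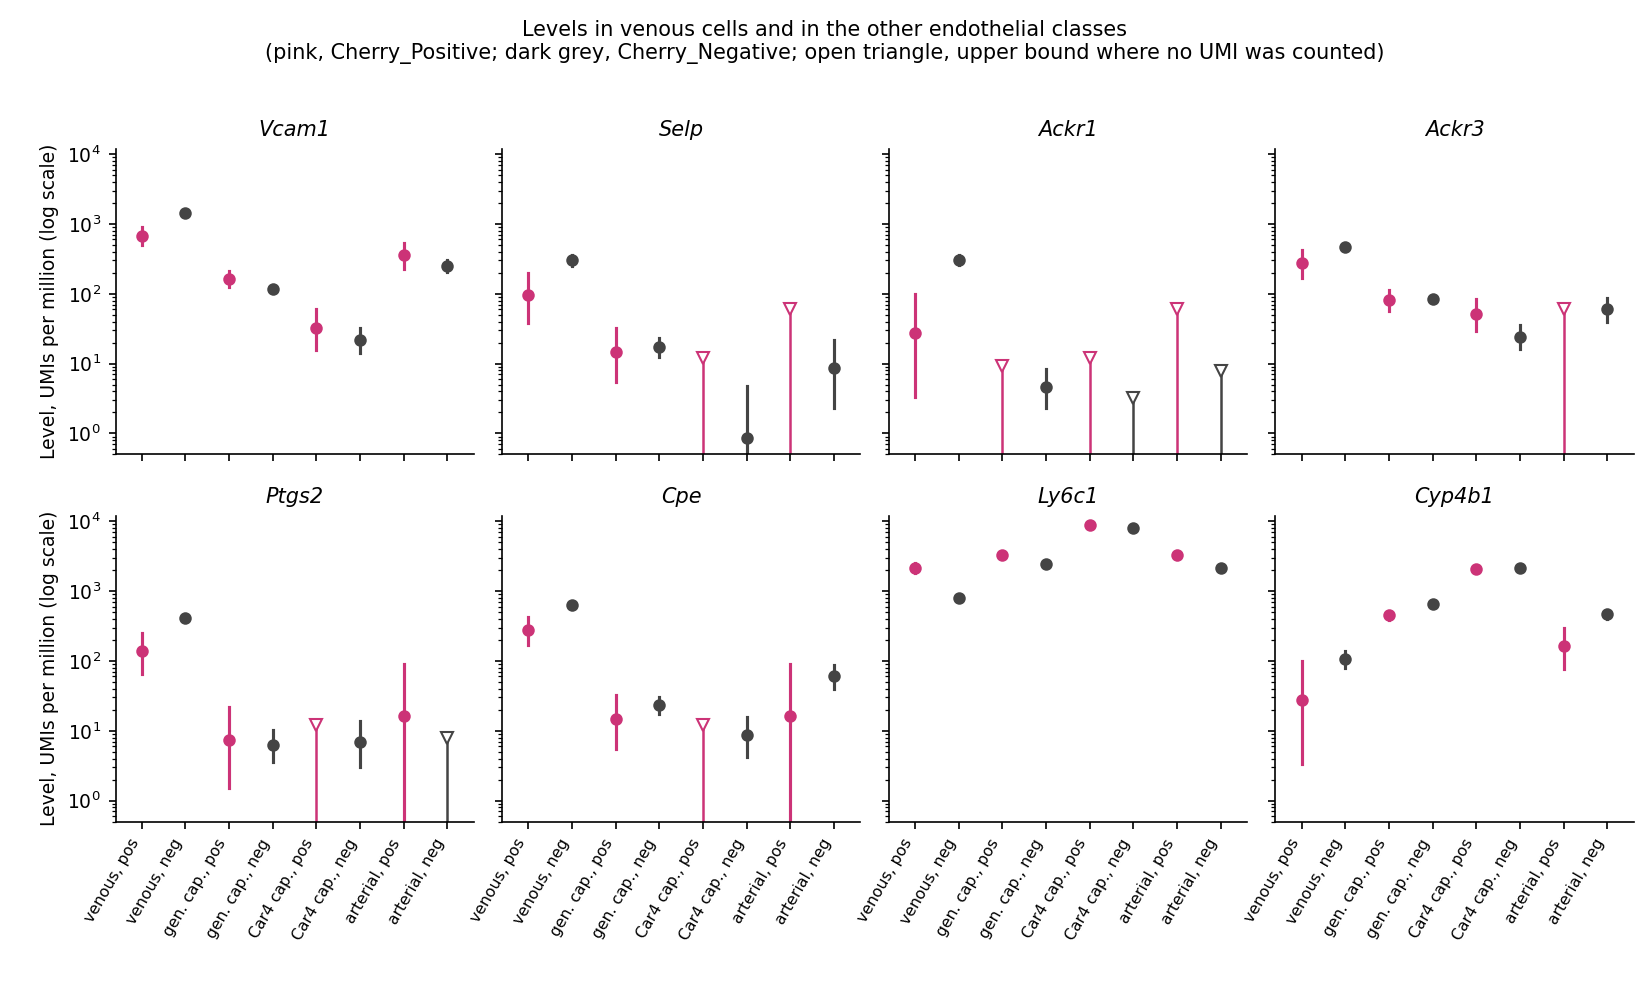
Level of 8 genes in CPM (log scale) in venous, general capillary, Car4 capillary and arterial cells of Cherry_Positive (pink) and Cherry_Negative (dark grey), with 95% counting intervals; an open triangle is the upper bound where no UMI was counted. Vcam1, Selp, Ackr1, Ackr3, Ptgs2 and Cpe were higher in Cherry_Negative venous cells than in the capillary and arterial cells of that library, and Ly6c1 and Cyp4b1 lower.

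Since Nr2f2 is a rule marker and its product belongs to a receptor family that binds repeats of AGGTCA, the promoters of the venous genes were read for this half-site, in either strand (TGACCT), in windows from 250 bases before to 50 bases after each start. It was the only motif searched, and it was present in 4 of 15 matched genes of the venous list (26.7%), namely Ackr1, Hdac9, Selp and Tmem252, and in 5340 of 32851 promoters in all (16.3%). The venous share counts genes, each by any of its promoters, and the other share counts single promoters. They are unlike measures, and no excess can be read from them. The bases before the start of Ackr1 and Selp, among the genes highest in members over other endothelium, are given with the half-site in capitals, from RefSeq on GRCm38.p6. The Ackr1 stretch is on the minus strand at chr1:173333504-173333753 and that of Selp on the plus strand at chr1:164115014-164115263. The sites begin 167 and 93 bases before the RefSeq start. In another annotation, GENCODE, Ackr1 spans 173331886 to 173333750. By that annotation nearly all of the Ackr1 stretch, with its half-site, lies inside the gene.
Ackr1: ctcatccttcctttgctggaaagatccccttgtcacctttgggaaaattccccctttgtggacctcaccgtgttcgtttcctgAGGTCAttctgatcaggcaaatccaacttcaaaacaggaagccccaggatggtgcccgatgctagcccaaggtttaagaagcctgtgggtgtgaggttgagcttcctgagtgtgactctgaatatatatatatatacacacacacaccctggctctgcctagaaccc
Selp: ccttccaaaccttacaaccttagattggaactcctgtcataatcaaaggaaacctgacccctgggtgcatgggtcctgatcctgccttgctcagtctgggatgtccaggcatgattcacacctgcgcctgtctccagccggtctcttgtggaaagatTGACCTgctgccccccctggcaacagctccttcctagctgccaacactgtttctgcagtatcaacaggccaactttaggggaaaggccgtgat
A match describes these letters only, and binding was not measured.

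Some enzymes of prostanoid synthesis, which were picked after their values were seen and form no list of their own, were also higher. Ptgs2, the inducible cyclooxygenase, stood at 415 against 5.74 CPM in Cherry_Negative (72.4-fold, 46.9 to 117) and at 137 against 4.52 CPM in Cherry_Positive (30.4-fold, 8.76 to 133). Ptgs1, the constitutive cyclooxygenase, stood at 110 against 11.2 CPM (9.77-fold, 6.43 to 14.9) and 68.6 against 5.65 CPM (12.1-fold, 2.79 to 52.8). Pla2g4a, the phospholipase that frees arachidonic acid for both enzymes, had 30 UMIs in Cherry_Negative members (14.9-fold, 7.97 to 28.8). Ptgis, the prostacyclin synthase, was 4.21-fold (3.31 to 5.32) and 3.20-fold (1.42 to 6.54) higher. Each of these genes was higher in members of both libraries, although in Cherry_Positive Pla2g4a rested on 4 UMIs against 1.

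Single genes of other roles were higher too. Cpe, a carboxypeptidase that trims peptide hormones, stood at 626 against 23.2 CPM in Cherry_Negative (27.01-fold, 21.3 to 34.5) and 275 against 12.4 CPM in Cherry_Positive (22.1-fold, 10.1 to 51.0). Vegfc, a growth factor for lymphatic and venous endothelium, stood at 270 against 28.4 CPM (9.50-fold, 7.32 to 12.3) and 178 against 13.6 CPM (13.2-fold, 5.53 to 31.5). Procr, the endothelial receptor of protein C, was 5.18-fold (3.77 to 7.07) and 5.06-fold (2.16 to 10.98) higher.

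Over all 9884 genes with at least 20 UMIs in Cherry_Negative, 6.73% were at least 2-fold higher and 9.19% at least 2-fold lower in members, and over 5788 genes in Cherry_Positive 9.45% and 13.9%. Of 20 venous genes outside the rule, 18 had at least 10 UMIs in Cherry_Negative, and all 18 were higher in members, 14 of them at least 2-fold, against 9.58% of all 11115 genes of that depth. Their median log2 ratio was 2.92, with a median of -0.04 over all genes. In Cherry_Positive 12 of 13 were higher and 8 at least 2-fold, against 13% of all 7824 genes, with a median of 2.11 beside 0.09. Among the genes below 2-fold was Ephb4, a receptor of venous identity, at 1.13-fold (0.846 to 1.49) and 0.9847-fold (0.350 to 2.25). Nrp2, a VEGF-C co-receptor, was below 2-fold only in Cherry_Positive, at 5.10-fold (3.32 to 7.75) in Cherry_Negative and 1.05-fold (0.409 to 2.26) in Cherry_Positive. The list was drawn up with results of these libraries known, so its direction is no independent evidence. The summed other classes also differed in make-up between the libraries. Lymphatic cells gave 111192 of their 884536 UMIs in Cherry_Positive but 11629 of 4010339 in Cherry_Negative. Ratios to other endothelium in the 2 libraries, as for Nrp2, are thus taken against unlike mixtures, and the part of this was not tested.

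Genes that mark larger vessels were higher than in the summed other classes mainly in Cherry_Negative members. In that library those classes held 768 general capillary and 340 Car4 capillary cells but 166 arterial cells. The comparison therefore cannot tell a venous trait from one shared with arteries. In Cherry_Negative 12 of 15 large vessel genes were higher, 8 of them at least 2-fold, against 9.58% of all genes, with a median of 1.83. In Cherry_Positive 9 of 12 were higher, 4 at least 2-fold, against 13% of all genes, with a median of 0.55 that ranged from -0.06 to 1.16 over the alternatives. Mgp, an inhibitor of vessel calcification, stood at 1118 against 315 CPM in Cherry_Negative (3.55-fold, 3.20 to 3.93) and 1236 against 612 CPM in Cherry_Positive (2.02-fold, 1.60 to 2.53). Lrg1, a secreted glycoprotein of inflamed veins, stood at 711 against 90.3 CPM in Cherry_Negative (7.87-fold, 6.77 to 9.16), whereas in Cherry_Positive the level was 316 against 305 CPM. Eln, the gene of elastin, was 4.04-fold (3.32 to 4.89) higher in Cherry_Negative members. In Cherry_Positive 80.5% of its UMIs came from 1 cell, the member with smooth muscle genes.

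Among the other genes farthest above other endothelium in Cherry_Negative were Fgl2 (22.3-fold, 13.4 to 38.3), Tmem45a (21.3-fold, 13.0 to 36.2), Ptprr (16.4-fold, 8.89 to 31.4), Amigo2 (13.8-fold, 8.81 to 22.03), Tgfb2 (12.6-fold, 7.92 to 20.2), Pcp4l1 (11.8-fold, 8.55 to 16.3), Igfbp5 (11.5-fold, 7.57 to 17.5) and Tshz2 (11.4-fold, 7.84 to 16.6). Fgl2 encodes a fibrinogen-like protein, Tgfb2 a growth factor and Igfbp5 a binding protein of insulin-like growth factors. Each was also higher in Cherry_Positive members, on 1 to 11 UMIs. Hp, an acute phase gene, also reached 16.6-fold (13.6 to 20.4), but 87.5% of its Cherry_Negative UMIs lay in the member rich in Scgb1a1, and without the 7 mixed cells it was lower in members, with a log2 ratio of -2.09. The other classes were not filtered for mixed cells. In Cherry_Negative, general capillary cells held 18717 CPM of alveolar markers, and members without mixed cells 2190 CPM. The part of this in the Hp ratio was not tested.

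Capillary genes were lower in members. All 12 measured genes of the Car4 capillary list were lower in Cherry_Negative, 9 of them at least 2-fold, against 10.9% of all genes, with a median log2 ratio of -1.86. In Cherry_Positive 11 of 12 were at least 2-fold lower, against 16.8% of all genes, with a median of -1.73. Cyp4b1, a lung cytochrome P450, stood at 105 against 1068 CPM (10.1-fold lower, 7.67 to 13.7) in Cherry_Negative and at 27.5 against 978 CPM (35.6-fold lower, 9.83 to 295) in Cherry_Positive. Emp2, a membrane protein of thin alveolar endothelium, was 5.06-fold (3.87 to 6.74) and 19.8-fold (6.74 to 96.1) lower. Kdr, the main VEGF receptor, was 2.56-fold (2.08 to 3.19) and 3.02-fold (1.75 to 5.72) lower.

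General capillary genes outside the rule were lower in Cherry_Negative, with a median of -1.33 and 7 of 10 at least 2-fold lower, against 10.9% of all genes. That median ranged from -1.60 to -0.68 over the alternatives. In Cherry_Positive 3 of 10 were at least 2-fold lower, against 16.8% of all genes, and the median of -0.14 ranged from -0.16 to 0.07 over the alternatives. Gpihbp1, which anchors lipoprotein lipase to capillaries, was 2.51-fold lower (2.22 to 2.85) in Cherry_Negative members but 1.05-fold lower (0.796 to 1.42) in Cherry_Positive. Hilpda, a lipid droplet gene, was 5.37-fold (4.01 to 7.36) and 4.78-fold (1.84 to 17.7) lower. Ly6c1, a surface antigen of lung microvessels, stood at 808 against 4000 CPM (4.95-fold lower, 4.47 to 5.49) and at 2142 against 4779 CPM (2.23-fold lower, 1.90 to 2.63). Other genes far below the other classes in Cherry_Negative were AW112010 (6.54-fold lower, 4.57 to 9.73) and Tbx2 (13.1-fold lower, 5.58 to 40.5). Il1a, the interleukin 1 alpha gene, had no UMI in Cherry_Negative members against 254 in the other classes, which is at least 10.01-fold lower with a floor of 3 counts over the members.

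Lists of cell state were compared with the other endothelial classes in the same way. The acute phase and NF-kB list had a median log2 ratio of 0.88 in Cherry_Negative, with 15 of 17 genes higher and 7 at least 2-fold, against 9.58% of all genes. Over the alternatives that median ranged from 0.29 to 0.92. In Cherry_Positive its median of 0.30 ranged from -0.29 to 0.50 over the alternatives. In Cherry_Negative, Nfkbia, the inhibitor that NF-kB induces, was 1.86-fold higher (1.73 to 2.001), and Ch25h, the cholesterol 25-hydroxylase gene, 11.8-fold (8.12 to 17.4). MHC class I genes were lower, with 18 of 20 below the other classes in Cherry_Negative and 14 of 20 in Cherry_Positive and medians of -0.53 and -0.35. Of all genes of at least 20 UMIs, 45.2% and 51.0% were higher in members. Medians of the interferon gamma list were -0.22 and -0.31, and those of 20 endothelial identity genes -0.32 and -0.40, the latter from -0.43 to 0.45 over the alternatives. The p53 target list had medians of -0.62 and 0.18, the latter from -0.14 to 0.34, and the immediate early list of 0.37 and 0.20. All 15 measured cell cycle genes were lower in Cherry_Negative members, with a median of -1.71, or -0.58 when genes with 0 UMIs were set at their bound.

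Members differed among themselves, and are described here by the rule markers they held. In Cherry_Negative, without the mixed cells, 47 members held Slc6a2, 34 held Vwf without Slc6a2 and 27 held neither. Vcam1 stood at 1990 CPM in the first, 1861 in the second and 521 in the third, beside 117 CPM in general capillary cells of that library. Selp stood at 474, 356 and 40.1 CPM, and Cpe at 985, 704 and 120 CPM. Ptgs2 stood at 598 and 570 CPM in the Vwf groups and was not detected in Prss23-led members, where the counting interval reached 49.2 CPM. In the same order, Ly6c1 stood at 727, 668 and 1829 CPM, Igfbp7 at 899, 704 and 2510 CPM, and general capillary cells held 2442 CPM of Ly6c1 and 2841 CPM of Igfbp7. Levels of both genes in Prss23-led members were thus nearer to those of general capillary cells.

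Over lists, 15 of 15 measured venous genes outside the rule were higher in Slc6a2 members than in Prss23-led ones, 13 of them at least 2-fold, against 11.7% of all genes, with a median log2 ratio of 1.92. All 7 measured large vessel genes were higher, 6 at least 2-fold, with a median of 2.65. By contrast 9 of 10 p53 targets were lower, 5 at least 2-fold, against 11% of all genes, with a median of -1.03. Cdkn1a, the p53-induced inhibitor of cyclin-dependent kinases, stood at 1708 CPM in Slc6a2 members and 3311 CPM in Prss23-led ones, and Fos, an immediate early gene, at 3894 and 1148 CPM.

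Prss23-led members of Cherry_Negative still differed from general capillary cells, with 15 of 17 venous genes higher, 9 at least 2-fold, against 16.9% of all genes, and a median of 1.29 beside 0.16 over all genes. Vcam1 was 4.45-fold (3.09 to 6.23) and Cpe 5.20-fold (2.26 to 10.6) higher. Gpihbp1 was 2.72-fold lower (2.07 to 3.66). The general capillary cells, unlike these members, were not filtered for markers of other cell types. Levels of Vcam1 and Cpe in these members lay between those of Vwf members and of general capillary cells, so the venous name is used for them by the rule alone. The rule itself asks these cells to hold fewer general capillary marker UMIs than venous ones. Those markers therefore differ by construction, and what part the choice of cells has in the other genes was not tested.

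Within the Vwf members, cells with and without Slc6a2 differed in some venous genes and in single matrix and chemokine genes. Their median log2 ratio over the venous list was 0.39, with 13 of 16 higher with Slc6a2, 1 of them at least 2-fold, against 6.61% of all genes, and 2 at least 2-fold lower, against 8.13%. Mgp stood at 631 CPM with Slc6a2 and 3019 CPM without (4.78-fold, 3.90 to 5.89), and Lrg1 at 641 and 1683 CPM (2.63-fold, 2.09 to 3.30). Cxcl12, the chemokine that ACKR3 takes up and a gene of both the arterial and the general capillary list, had 1 UMI with Slc6a2 and 36 without. In the other direction Vegfc was 2.47-fold (1.54 to 4.11), Sox17, a gene of arterial identity, 4.16-fold (1.47 to 16.2) and Igfbp5 8.77-fold (2.83 to 44.0) higher with Slc6a2. Ackr1 was 3.09-fold lower with Slc6a2 (2.17 to 4.43), with 64.2% and 50% of its UMIs in 1 cell of each set. The fibroblast markers were lower with Slc6a2, with a median of -2.07, and their part in the Mgp and Cxcl12 values was not tested.

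**Figure D3:**
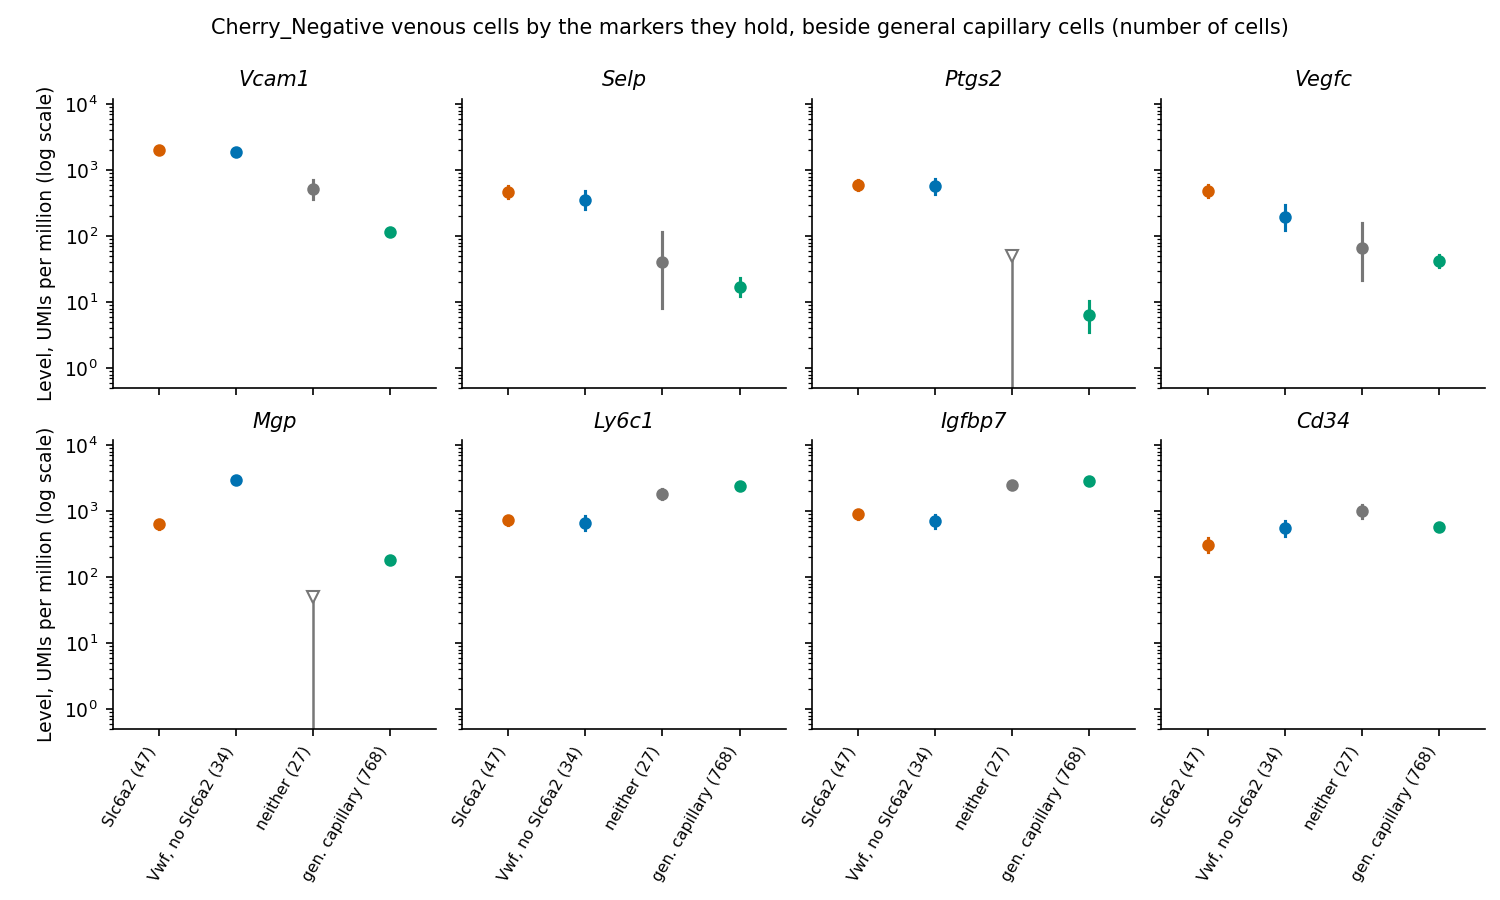
Level of 8 genes in CPM (log scale, 95% counting intervals) in Cherry_Negative members with Slc6a2, with Vwf but no Slc6a2, and with neither, without mixed cells, beside general capillary cells; open triangles are upper bounds for 0 UMIs. Vcam1, Selp, Ptgs2 and Vegfc were lowest in the members with neither and in general capillary cells, Ly6c1 and Igfbp7 were highest there, and Mgp peaked in Vwf members without Slc6a2. General capillary cells were not filtered for mixed cells.

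In Cherry_Positive the same groups hold few cells. Vcam1 stood at 2173 CPM in 3 members with Slc6a2, 1183 CPM in 3 with Vwf alone and 318 CPM in 9 Prss23-led members, where 76.9% of its UMIs lay in 1 cell. Ackr3 stood at 1383 and 507 CPM in the first groups and was not detected in the third, beside 81.9 CPM in general capillary cells. Ly6c1 stood at 889, 930 and 3303 CPM, the last beside 3297 CPM in Cherry_Positive general capillary cells.

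Members made up 0.904% (0.518% to 1.46%) of kept Cherry_Positive cells and 4.06% (3.36% to 4.85%) of kept Cherry_Negative cells. All endothelial cells were likewise 14.6% and 54.96% of the kept cells, and with 1 library per sort gate these shares cannot be told apart from the gate. Of endothelial cells, members were 6.20% (3.59% to 9.88%) and 7.38% (6.12% to 8.80%), with overlapping intervals. Members with Vwf were 2.33% (0.858% to 4.99%) and 5.37% (4.30% to 6.62%) of endothelial cells, which also overlap.

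Between the libraries, 276 of 3925 genes with at least 20 UMIs over all members (7.03%) were at least 2-fold higher in Cherry_Positive and 390 (9.94%) at least 2-fold lower. Without the mixed cells 194 of 3515 were higher and 387 lower. Venous genes outside the rule were lower in Cherry_Positive members, 14 of 16 of them, 7 at least 2-fold, against 12.7% of all genes of at least 10 UMIs, with a median log2 ratio of -0.86 beside 0.08. Vwf stood at 467 against 1238 CPM, a ratio of 0.377 (0.259 to 0.533), Vcam1 at 673 against 1432 CPM (0.470, 0.344 to 0.628), Selp at 96.1 against 299 CPM (0.321, 0.127 to 0.679) and Cpe at 275 against 626 CPM (0.438, 0.264 to 0.689). Leaving out each Cherry_Positive member in turn moved the list median between -1.26 and -0.70.

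Among Vwf members alone, a restriction chosen after seeing the data and made on a rule marker, the list median was near 0. There 10 of 16 venous genes were higher in Cherry_Positive, none at least 2-fold, beside 23.9% of all genes, and 3 were at least 2-fold lower, beside 10.9%, and the median was 0.09 beside 0.27 over all genes. Ratios of Cherry_Positive to Cherry_Negative were 0.936 (0.649 to 1.31) for Vcam1, 0.832 (0.329 to 1.76) for Selp and 0.983 (0.564 to 1.60) for Cpe. Ackr1 stayed lower at 0.234 (0.0281 to 0.863), on 2 UMIs against 141. Over all members it was counted in 12.5% of Cherry_Positive and 15.8% of Cherry_Negative cells. Its ratio thus rests on few cells, and the interval does not cover differences between them. Per cell, the venous list took a median of 92.7 (33.6 to 111, n = 6) of every 10000 UMIs in Cherry_Positive Vwf members and 77.9 (2.83 to 218, n = 83) in Cherry_Negative ones. Over all members the medians were 32.1 (n = 16) and 56.3 (n = 114), and the share of members without Vwf moved with this difference; its part was not tested.

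Genes of the interferon gamma response, the programme that T cell and NK cell cytokine switches on in endothelium, were higher in summed Cherry_Positive members. Of 18 measured genes, 16 were higher, 13 of them at least 2-fold, against 10.8% of all genes, with a median log2 ratio of 1.32. The sum leaned on 1 Prss23-led cell of 4915 UMIs, which gave the list 564 of every 10000 UMIs and held 33.6% of the list's UMIs in its library. Without it the median was 0.56, with 12 of 17 higher and 4 at least 2-fold, whereas leaving out any of the other 15 cells kept it between 1.19 and 1.48. Thinned to 2000 UMIs per cell, 6 of 11 genes were higher and the median was 0.01.

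Cell by cell, the list took a median of 56.8 per 10000 UMIs (22.98 to 564, n = 16) in Cherry_Positive members and 70.8 (1.17 to 389, n = 114) in Cherry_Negative ones, so the typical cell was not higher in Cherry_Positive. Among Vwf members the medians were 61.1 and 61.4. Cxcl10 and Cxcl9, T cell attracting chemokines, showed the same concentration, with 80.4% and 92.9% of their Cherry_Positive UMIs in 1 cell. By sums over cells, as for the members, the interferon gamma list's median was 1.41 in general capillary cells, 0.67 in Car4 capillary cells and 1.56 in arterial cells.

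**Figure D4:**
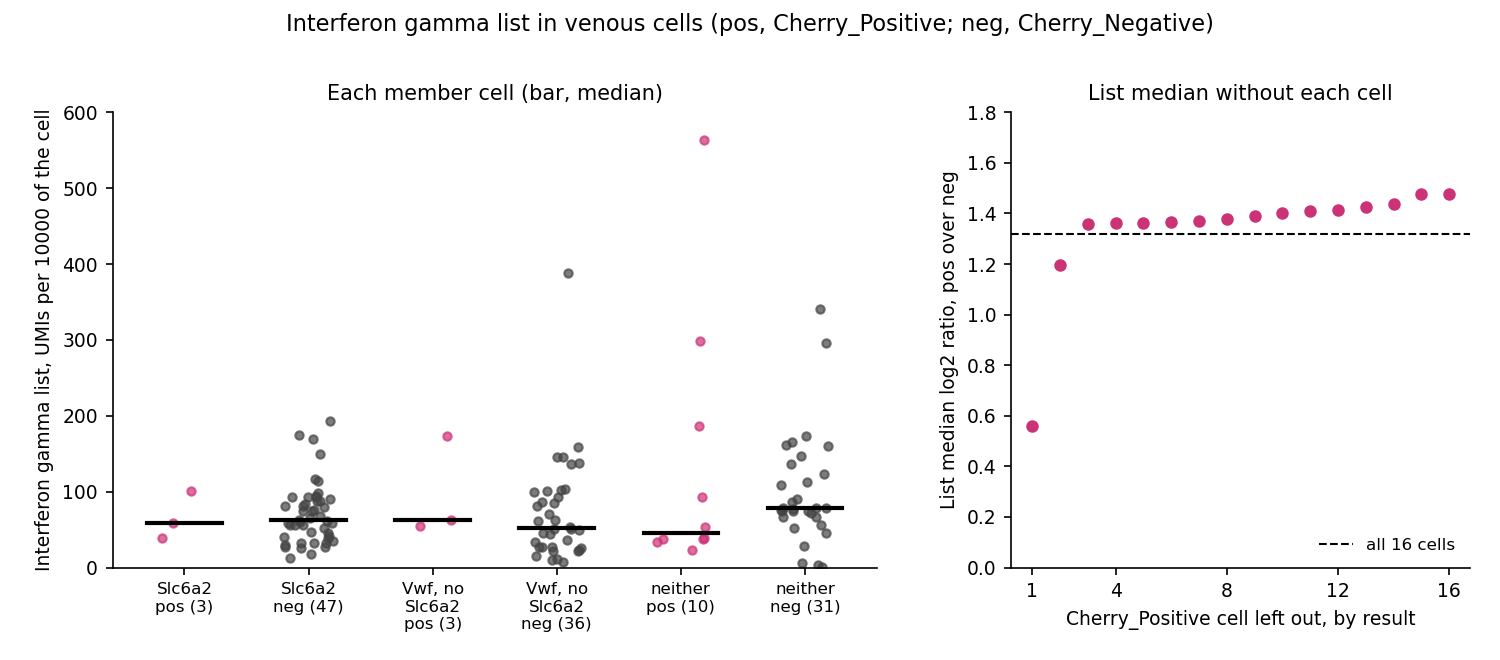
Left, UMIs of the interferon gamma list per 10000 UMIs of the cell in each member of Cherry_Positive (pink) and Cherry_Negative (dark grey), by rule markers held, with the median as a bar. Right, the list's median log2 ratio of Cherry_Positive over Cherry_Negative with each of the 16 Cherry_Positive cells left out, sorted, where 1 cell takes it from 1.32 to 0.56.

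Some single genes stayed at least 2-fold higher without that cell. Bcl3, a nuclear partner of NF-kB, had 20 UMIs in 10 Cherry_Positive members, a ratio to Cherry_Negative of 5.01 (2.65 to 9.33), with a lowest value of 3.57 when each cell was left out and 0.5 added to the counts. Tpp1, a lysosomal peptidase, stood at 3.76 (1.85 to 7.36) with a lowest value of 2.92, and at 4.72 (1.56 to 12.1) among Vwf members. Psmb8, an immunoproteasome subunit, stood at 2.43 (1.70 to 3.42) with a lowest value of 2.01, reached when that cell of 4915 UMIs was left out. Among Vwf members the ratios were 2.36 for Bcl3 and 1.84 for Psmb8.

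Other genes named by the same rule were Litaf at 3.10 (1.72 to 5.40), Jmjd6 at 3.77 (1.62 to 8.33), Galnt1 at 3.58 (1.55 to 7.84), Guk1 at 2.75 (1.68 to 4.37) and Serinc3 at 2.26 (1.55 to 3.23). Without the mixed cells Jmjd6 stood at 2.66 (1.006 to 6.35), Galnt1 at 2.84 (1.14 to 6.52) and Serinc3 at 1.93 (1.28 to 2.86). Among Vwf members Litaf stood at 1.32 (0.152 to 5.30), Guk1 at 1.27 (0.251 to 4) and Jmjd6 at 3.81 (0.697 to 13.9), and Galnt1 had 0 against 11 UMIs. Ly6c1 stood at 2.65 (2.19 to 3.20) and Ly6a at 2.01 (1.77 to 2.29) over all members, but at 1.42 (0.854 to 2.25) and 1.02 (0.738 to 1.37) among Vwf members. Gbp3, an interferon-induced GTPase, stood at 2.93 (1.58 to 5.23) and at 1.81 without its leading cell, and with cells thinned to 2000 UMIs its log2 ratio turned to -1.30. MHC class I genes had 15 of 20 higher in Cherry_Positive, and 1 at least 2-fold, against 10.8% of all genes of at least 10 UMIs. Their median log2 ratio of 0.28 ranged from -0.12 to 0.47 over the alternatives, and per-cell medians were 141 and 143 per 10000 UMIs. Medians were 0.30 for type I interferon genes, with 14 of 18 higher, and 0.67 for p53 targets, with 10 of 12 higher. These medians ranged from -0.04 to 0.84 and from 0.34 to 0.90 over the alternatives. Of all 3925 genes of at least 20 UMIs, 56.1% were higher in Cherry_Positive members.

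Genes lowest in Cherry_Positive members against Cherry_Negative ones included venous and endothelial ones. Ch25h had 0 against 70 UMIs (at least 3.58-fold lower), Bace2, a protease related to beta-secretase, 0 against 63 (at least 3.23-fold lower) and Entpd1, the ATP-degrading ectoenzyme CD39, 0 against 44 (at least 2.25-fold lower), each with a floor of 3 counts over the members. Fbln5, an elastic fibre protein gene, had 1 against 90 UMIs (13.8-fold lower, 2.42 to 552), and 0 against 76 without the mixed cells, at least 4.02-fold lower. Csrp2, a LIM domain gene, was 3.07-fold lower (1.73 to 6.03).

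The alveolar genes Sftpb, Cxcl15 and Chil1 had no UMI in Cherry_Positive members against 459, 298 and 149 in Cherry_Negative, and without the mixed cells these were 26, 24 and 10. Sftpc stood at 137 against 11379 CPM over all members, and at 127 against 1567 CPM without the mixed cells. In general capillary cells, which were not filtered for mixed cells, Sftpc stood at 6002 and 13248 CPM, so epithelial RNA was also higher in Cherry_Negative outside the members. Its part in the other differences between the libraries was not tested, and with 1 library per group the sort and the library cannot be told apart.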

How the data were processed

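The files hold raw counts of UMIs per gene and barcode as deposited by the authors, for 27998 gene IDs in 2 Chromium 3' libraries per the labels. Per the submitters' processing notes, the tools were Cell Ranger 2.1.1, Seurat 4.0.2 and R 4.0.3, with the mm10 build. For other settings, nothing is stated in the sources used.

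A level is a gene's UMIs summed over a class per 1000000 of its UMIs (CPM), with an exact 95% Poisson interval. Ratios take 95% limits from a binomial share, and shares of cells are Clopper-Pearson. The work used pandas 2.3.3, scipy 1.17.1 and numpy 2.4.6 under Python 3.11.15. Fold counts used genes of at least 20 UMIs and lists genes of at least 10, with 0.5 added to each count, and genes at 0 were set against 3 counts. Genes with a duplicated symbol were kept apart by ID, and 6 list symbols could not be used. Scrublet in scanpy 1.11.5 called 4 and 7 doublets (0.226% and 0.249% of kept cells), too few to have worked, and no cell was removed for it. Figures used matplotlib 3.10.9. The computation was tested on simulated data.

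The members and the 37 lists were chosen with earlier results of these data known. Named genes were the rule markers, list genes, the 15 highest and 10 lowest against other endothelium by the interval bound nearest 1 in Cherry_Negative with the same direction in Cherry_Positive, and the 12 each way between libraries, seen in at least 3 cells of the higher library with no cell above 50% of its UMIs there. Genes given for a role outside these were chosen after their values were seen. Alternatives were other cell filters, rule thresholds, thinning to 2000 UMIs, doublets left out, equal weights, trimmed-mean scaling, 5% of free RNA subtracted and the leading cell of each gene left out. Added after seeing the data were Vwf members alone, members with at most 2% other markers, and each Cherry_Positive member left out. The limit of 2% was applied to members only, and the other classes were left unfiltered. Some genes that the rule names are not reported here.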

Additional observations from a re-analysis of the deposited data

How the results depend on the processing

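Counts past 2-fold and shares moved most with the processing. Requiring a venous sum at least 2 times the next class gave Cherry_Negative shares of 2.81% of kept and 5.11% of endothelial cells, and 838 genes higher than other endothelium in Cherry_Positive. Thinning to 2000 UMIs gave 8.81% of endothelial cells in Cherry_Negative, 344 genes higher and 516 lower than other endothelium in Cherry_Positive, 103 higher and 180 lower in Cherry_Positive against Cherry_Negative members, and an interferon gamma median of 0.013. Between the libraries, leaving out the leading cell of each gene gave 57 higher and 667 lower, and a minimum of 50 UMIs gave 65 and 119. With Vwf members alone, an alternative chosen after seeing the data, shares were 0.339% and 2.95% of kept cells and 2.33% and 5.37% of endothelial cells, with 490 genes higher between the libraries, a venous median of 0.091, and 1370 genes higher than other endothelium in Cherry_Positive.

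Single genes that were at least 2-fold higher or lower in the main result turned direction as follows (log2 ratios). Against other endothelium, Hp stood at -2.08 with a venous sum of at least 5, at -1.23 when thinned and at -2.09 without mixed cells, Amigo2 in Cherry_Positive at -0.24 with at least 1000 genes and at most 5% mitochondrial counts, and Rtn1 in Cherry_Positive at 0.26 with Vwf members. Between the libraries, Bst1 stood at 0.15 when thinned and 0.35 with Vwf members, Gbp3 at -1.30 when thinned, and Galnt1 at -0.48 with Vwf members. Genes with smaller main ratios also took both directions over the alternatives. Between the libraries these were Slc6a2 (-1.23 to 1.21), Nr2f2 (-0.76 to 0.44) and Prss23 (-0.48 to 0.08). Against other endothelium, Hp in Cherry_Positive ranged from -1.15 to 0.89. Medians of the Cherry_Positive members against other endothelium also turned direction in some alternatives for large vessel, general capillary, leukocyte adhesion, acute phase, endothelial identity and p53 lists, with the ranges given above. Some of these alternatives hold fewer cells, and the cause of the turns was not tested. The venous list stayed above 0 against other endothelium under every alternative run, from 2.68 to 3.21 in Cherry_Negative and from 1.39 to 2.69 in Cherry_Positive. Trimmed-mean scaling shifted all genes by 0.07. The 16 Cherry_Positive cells limit every statement on that library. No paired analysis was possible because each group has 1 library.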
